A study of Mus musculus with 21 samples.

Results

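The cells described here were germinal centre B cells of mouse lymph nodes whose most abundant heavy chain constant transcript was that of IgM, set against those in which it was that of IgG1. They came from the sorted fraction without plasma cells (non-PC) and carried the authors' names LZ (light zone) or DZ (dark zone). For each cell the raw UMI counts (unique molecular identifiers, each standing for a captured transcript) of Ighm, Ighd, Ighg1, Ighg2b, Ighg2c, Ighg3, Igha and Ighe were compared, and cells were chosen by these counts alone. The top gene gave the class if it had 2 or more UMIs and at least 2 times the count of the next gene. This put 1946 cells in the IgM class (1098 LZ and 848 DZ) and 1524 in the IgG1 class (947 LZ and 577 DZ), so 3470 of the 5463 LZ and DZ cells of that fraction and of the 6619 cells in all.

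The donors were 6 mice immunised with 100 µg of NP-KLH, a hapten on a carrier protein, in the adjuvant SAS, and given 5 mg of tamoxifen so that a tamoxifen-dependent Cre turned on the eYFP label. The design had 2 mice for each of days 10, 16 and 22, and from their draining lymph nodes live eYFP-positive B cells without surface IgD were sorted. The promoter behind the Cre, the strain and the age of the mice are not given in the sources used here. Cells of all 6 mice were tagged by mouse, pooled and captured together with a 5′ chemistry, so both classes of a mouse went through the same well.

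A B cell starts with IgM and can recombine its heavy chain locus so that the same variable region is joined to another constant region, such as that of IgG1. Both forms can be carried on the surface as part of the B cell receptor. In the dark zone germinal centre B cells divide and mutate their receptor genes, and in the light zone they capture antigen and compete for help from T cells. The membrane forms of IgM and IgG1 differ at the end that lies inside the cell, where IgG has a longer tail. The coding end of each membrane transcript is shown here because it includes the part of the receptor in which the classes compared differ inside the cell. The first membrane exon is in lower case and the last coding exon, stop codon included, in capitals (both exons joined without the intron between them, GENCODE M21, GRCm38, minus strand, 5′ to 3′).
Ighm (chr12:113418826-113419068): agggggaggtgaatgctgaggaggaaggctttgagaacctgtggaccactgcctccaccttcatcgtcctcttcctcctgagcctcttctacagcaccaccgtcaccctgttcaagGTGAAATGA
Ighg1 (chr12:113326541-113327572): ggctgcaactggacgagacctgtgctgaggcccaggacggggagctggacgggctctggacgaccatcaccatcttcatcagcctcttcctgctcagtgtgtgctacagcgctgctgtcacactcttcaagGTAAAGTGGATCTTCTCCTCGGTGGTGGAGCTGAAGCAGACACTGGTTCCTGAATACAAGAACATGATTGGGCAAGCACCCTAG
The last coding exon held 2 codons before the stop in Ighm and 27 in Ighg1. The deposited counts come from the 5′ end of transcripts and do not tell membrane from secreted forms.

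The number of cells per mouse, class and zone ran from 49 to 370, and the summed depth from 720561 to 3721559 UMIs in LZ and from 654282 to 2880678 UMIs in DZ. Markers of both zones differed between LZ and DZ. How the authors made these names is not given in the sources used here, so the levels are no separate check of them. Cd83, a light zone marker, stood at 520 CPM (counts scaled by the total of a sum) in IgM and 486 CPM in IgG1 cells of LZ, against 111 and 109 CPM in the same classes of DZ. Ccnb2, a mitotic cyclin, stood at 109 and 107 CPM in LZ, against 317 and 321 CPM in DZ. The germinal centre gene Mef2b was detected in 75.5% of IgM and 80.1% of IgG1 cells of LZ. The T cell gene Cd3e had 0 UMIs in both classes, while Cd3d had 4 in IgM and 14 in IgG1 cells of LZ. The other way round, Cd3d had 10 in IgM and 1 in IgG1 cells of DZ, and Trac 13 and 4 in LZ. The plasma cell gene Sdc1 had 0 UMIs in LZ and 1 in each class of DZ, while Xbp1 stood at 112 CPM in IgM and 94.9 CPM in IgG1 cells of LZ, and Jchain at 965 and 966 CPM.

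The class genes themselves chose the cells, so their levels are a description only. The median was 6 Ighm UMIs in LZ and 7 in DZ cells of the IgM class, and 4 Ighg1 UMIs in LZ and 5 in DZ cells of the IgG1 class. Just inside the rule, 113 LZ and 85 DZ cells of the IgM class and 219 LZ and 103 DZ cells of the IgG1 class had exactly 2 UMIs of their class gene. Just outside it, 625 cells had a top gene with exactly 1 UMI, 687 had 2 or more but under 2 times the next, and 128 had no UMI of the 8 genes, which together made up the 1440 cells without a class. At least 1 Ighg1 UMI was seen in 40.0% of IgM class cells, and in 32.4% of the 423 IgG2b class cells, at median depths of 8932.5 and 8747 UMIs. At least 1 Ighm UMI was seen in 37.7% of IgG1 class cells, at a median of 8231 UMIs, and in 38.8% of IgG2b class cells. Over all their cells, Ighm stood at 54.1 CPM in IgG1 and 66.1 CPM in IgG2b class cells, and Ighg1 at 65.0 CPM in IgM and 43.7 CPM in IgG2b class cells. Whether these reads are free RNA or the cells' own transcripts was not tested. Ighd, spliced from the same primary transcript as Ighm, was detected in 12.5% of LZ and 12.0% of DZ cells of the IgM class, against 2.64% and 2.95% of the IgG1 class.

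The IgM class was the larger one in the mice of days 10 and 16, while on day 22 the classes were near equal in 1 mouse and IgG1 was larger in the other. Its share of LZ and DZ cells was 51.6% and 53.7% on day 10, 34.6% and 36.9% on day 16, and 23.5% and 23.3% on day 22, with a value per mouse. The IgG1 class made up 24.7% and 23.4% on day 10, 30.7% and 31.7% on day 16, and 23.3% and 34.2% on day 22. The share of IgM was lower at each later day in these mice, whereas that of IgG1 spread as widely between both mice of day 22 as over all days. Cells without a class also differed by day, with 16.7% and 19.0% on day 10 against 35.8% and 31.7% on day 22, so these shares depend on the rule as well as on the cells. No test was made, since the rule fixed the classes.

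**Figure D1:**
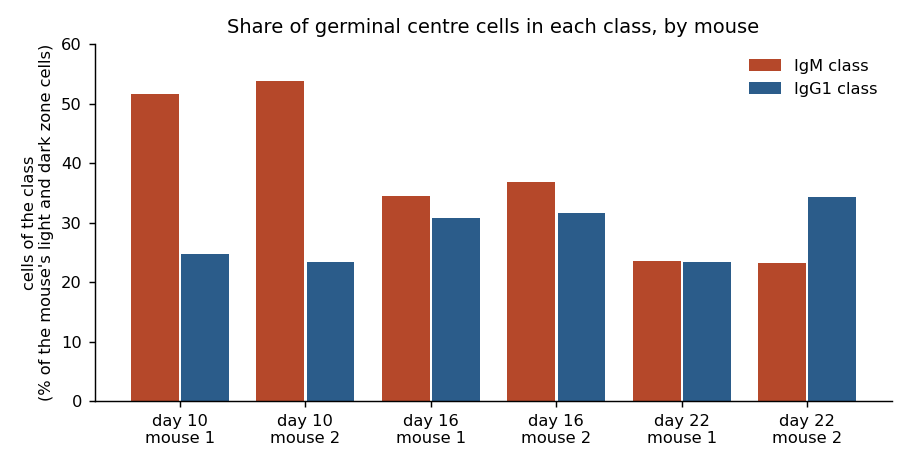
Share of each mouse's LZ and DZ cells of the non-PC fraction (y axis, percent) that fell in the IgM class (red, left) or the IgG1 class (blue, right), by mouse and day (x axis). The IgM share lies above 50% in both day 10 mice and at 23.5% and 23.3% in the day 22 mice.

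In the light zone, IgM cells had more transcript of the surface molecules Ly6d, Cd72 and Cd2, of the nuclear adaptor Lmo4 and of the transcription factor Foxp1 than IgG1 cells of the same mice. They had less of the protease inhibitor Slpi, the adaptor Lmo2, the interferon gamma receptor chain Ifngr1 and the lipid phosphatase Inpp5d. Immunoglobulin genes left out, 26 of 8054 genes passed an adjusted p of 0.05 (0.323%), 16 higher (0.199%) and 10 lower (0.124%) in IgM cells. The test was edgeR's quasi-likelihood F test on counts summed per mouse and class, with the mouse as a block and Benjamini-Hochberg adjustment over all 8225 genes tested, of which 51 passed (0.62%) with immunoglobulin genes included. With immunoglobulin genes taken out of the table and the library sizes 68 genes passed, 37 higher and 31 lower, among them all 26. Without the mouse as a block 8 passed, and among the refits that left out 1 mouse the count was 11 without day 22 mouse 2, 13 without day 16 mouse 1 and 16 without day 10 mouse 2. All adjusted p-values below are from such fits. Nothing says whether the 2 mice of a day were littermates, and each difference stands on 6 mice.

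Ly6d (chr15:74762056-74763620), a GPI-anchored protein known from early B lineage cells, ran from 153 to 287 CPM with a median of 234 CPM in IgM cells, against 62.7 to 155 CPM with a median of 85.6 CPM in IgG1 cells. The highest IgG1 mouse, at 155 CPM, lay just above the lowest IgM mouse, and within each of the 6 mice IgM was higher. The log2 difference was 1.36 ± 0.15 (SE), a 2.57-fold higher level, with an adjusted p of 0.000404. Cd72 (chr4:43446462-43454628), an inhibitory receptor of B cells that recruits the phosphatase SHP-1, ran from 138 to 274 CPM with a median of 195 CPM in IgM cells, against 53.9 to 166 CPM with a median of 76.9 CPM in IgG1 cells. The day 10 mice were highest in both classes, and IgM was higher in 6 of 6 mice, by 1.11 ± 0.12 (adjusted p = 0.000404). Cd2, an adhesion receptor for CD48, ran from 42.9 to 92.4 CPM with a median of 77.8 CPM in IgM cells, against 33.0 to 47.7 CPM with a median of 40.7 CPM in IgG1 cells. In 1 day 22 mouse the levels were close, at 42.9 CPM in IgM and 40.6 CPM in IgG1 cells. The difference was 0.88 ± 0.12 (adjusted p = 0.00297). Further surface genes past the threshold were Cd24a (0.21 ± 0.04, adjusted p = 0.0458), a GPI-anchored sialoprotein, and Ly6a (0.35 ± 0.07, adjusted p = 0.0328), the antigen Sca-1, both named here after their values were seen. Each of these calls held in 1 of the 6 refits that left out 1 mouse.

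Among regulators, Lmo4 and Foxp1 rose and Lmo2 and Hhex fell. Lmo4, a LIM domain adaptor of transcription complexes, ran from 18.7 to 24.1 CPM with a median of 22.6 CPM in IgM cells, against 2.85 to 14.7 CPM with a median of 8.15 CPM in IgG1 cells. The groups did not overlap, and the difference was 1.25 ± 0.22 (adjusted p = 0.0187), though the call was lost when either day 16 mouse or day 22 mouse 2 was left out, with log2 values of 1.14 to 1.45 over the 6 refits. Foxp1, a forkhead factor that is known to be turned down in germinal centre cells, ran from 85.8 to 144 CPM with a median of 113 CPM in IgM cells, against 57.4 to 119 CPM with a median of 70.5 CPM in IgG1 cells. It was higher in 6 of 6 mice, by 0.49 ± 0.08 (adjusted p = 0.00958). Lmo2, a related LIM adaptor used as a germinal centre marker, ran from 31.6 to 52.9 CPM with a median of 36.1 CPM in IgM cells, against 51.3 to 64.7 CPM with a median of 58.3 CPM in IgG1 cells. A single IgM mouse of day 16 reached the IgG1 range, and the difference was -0.66 ± 0.11 (adjusted p = 0.0167). The call was lost without day 10 mouse 2 and without day 22 mouse 2, with log2 values of -0.76 to -0.57 over the 6 refits. Hhex, a homeobox factor needed in mice to form memory B cells, was at 6.11 to 14.2 CPM in IgM and 12.9 to 26.6 CPM in IgG1 cells, with 117 and 156 UMIs in all. Its difference was -0.89 ± 0.16 (adjusted p = 0.0179), and the call was lost in 4 of 6 refits that left out 1 mouse (day 10 mouse 1, day 10 mouse 2, day 16 mouse 1 or day 22 mouse 2), with values of -0.93 to -0.86.

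Slpi (chr2:164354070-164389095), a secreted inhibitor of leukocyte proteases, ran from 95.5 to 291 CPM with a median of 162 CPM in IgM cells, against 216 to 433 CPM with a median of 300.1 CPM in IgG1 cells. The ranges overlapped, yet IgM was lower in each of the 6 mice, by -0.87 ± 0.11 on the log2 scale (adjusted p = 0.00124). Ifngr1, the ligand-binding chain of the receptor for interferon gamma, ran from 70.0 to 104 CPM with a median of 81.9 CPM in IgM cells, against 107 to 134 CPM with a median of 113 CPM in IgG1 cells. The groups did not overlap and differed by -0.47 ± 0.07 (adjusted p = 0.0064). Over all genes tested, immunoglobulin genes left out, every IgM mouse lay above every IgG1 mouse in 0.174% and below in 0.161%. Scimp, an adaptor that works with MHC class II, had a difference of -0.37 ± 0.06 (adjusted p = 0.0064). Inpp5d, the phosphatase SHIP1 that removes the lipid signal made by PI3 kinase, had a difference of -0.38 ± 0.07 (adjusted p = 0.0296). Its call was kept only without day 10 mouse 2, with values of -0.44 to -0.35 over the 6 refits. Smaller decreases past the threshold were those of Basp1 (-0.26 ± 0.05), Crip1 (-0.21 ± 0.04) and Laptm5 (-0.21 ± 0.04), a lysosomal protein that promotes breakdown of antigen receptors, with adjusted p-values of 0.0466, 0.0296 and 0.0179. Of the 6 refits, the call of Basp1 held in 1, that of Crip1 in 2 and that of Laptm5 in 3. Gas8 (-1.22 ± 0.25, adjusted p = 0.0458) ran from 2.96 to 7.91 CPM in IgM and 9.59 to 13.3 CPM in IgG1 cells and was named after its values were seen. Its call held in 1 of the 6 refits.

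Enzymes and remaining genes past the threshold rose by at most 1.54-fold, the value of Gm8369. Blvrb, a flavin and biliverdin reductase, ran from 214 to 440.4 CPM with a median of 268 CPM in IgM cells, against 152 to 343 CPM with a median of 184 CPM in IgG1 cells, a difference of 0.53 ± 0.07 (adjusted p = 0.00362) seen in 6 of 6 mice. Pkib, an inhibitor of protein kinase A, differed by 0.61 ± 0.12, Ifi27l2a, an interferon-induced gene, by 0.55 ± 0.11, Gimap5, a lymphocyte GTPase, by 0.51 ± 0.10, and Phgdh, the first enzyme of serine synthesis, by 0.45 ± 0.08. Their adjusted p-values were 0.0339, 0.0328, 0.0343 and 0.0179, and none of these 4 calls held in all 6 refits that left out 1 mouse. Ifi27l2a varied more by day than by class, with 541 and 712 CPM in IgM and 235 and 565 CPM in IgG1 cells of the day 10 mice, and at most 272 CPM in IgM and 156 CPM in IgG1 cells of the later mice. The other genes called higher were Gm8369 (0.63 ± 0.09), Gmfg (0.40 ± 0.08), Shisa5 (0.38 ± 0.06) and RP23-435I4.11 (0.41 ± 0.07), which the naming rule leaves out. Further genes with low p were lower in IgM and did not pass, namely Cryz (-0.72 ± 0.15, adjusted p = 0.0504), Syngr2 (-0.27 ± 0.06, adjusted p = 0.0603), Parm1 (-0.53 ± 0.12, adjusted p = 0.0886) and Map2k6 (-0.65 ± 0.15, adjusted p = 0.0903).

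**Figure D2:**
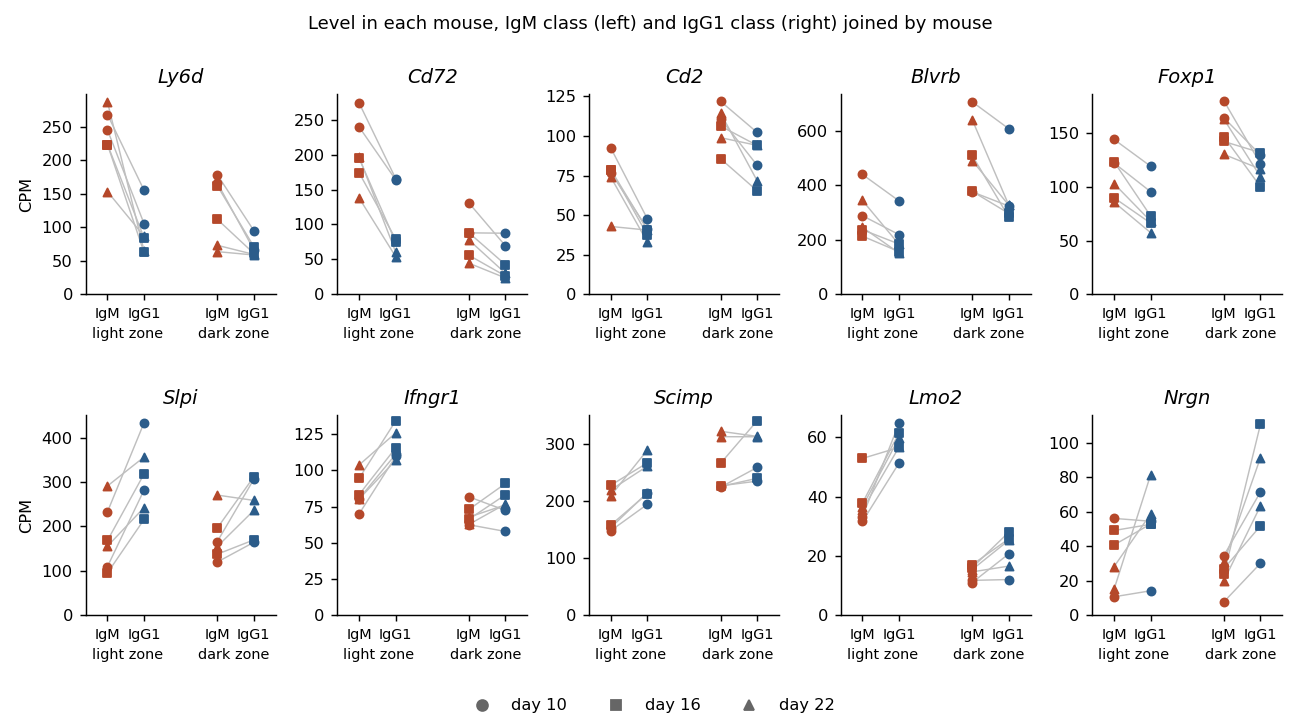
Level (y axes, CPM after TMM scaling, from 0) of 10 genes in each mouse, with IgM class sums (red) left of IgG1 class sums (blue) of the same mouse joined by a line, for the light zone and the dark zone. Symbols give the day. In LZ the lines of Ly6d, Cd72, Cd2, Blvrb and Foxp1 fall toward IgG1 in all 6 mice and those of Slpi, Ifngr1, Scimp and Lmo2 climb, and Nrgn differs most in DZ.

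In the dark zone fewer genes passed, and most of them were genes of the light zone list. Of 7789 genes, immunoglobulin genes left out, 5 passed (0.0642%), of which 4 were higher (0.0514%) and 1 lower (0.0128%) in IgM cells. With immunoglobulin genes counted 12 of 7946 passed (0.151%), and with them taken out of the table and the library sizes 15 genes were higher and 15 lower. Cd72 ran from 44.7 to 131 CPM with a median of 83.0 CPM in IgM cells, against 23.5 to 87.5 CPM with a median of 36.3 CPM in IgG1 cells, a difference of 0.87 ± 0.15 (adjusted p = 0.0463). In day 10 mouse 1 the levels were 88.0 CPM in IgM and 87.5 CPM in IgG1 cells, so this mouse showed almost no difference. Ly6d ran from 63.8 to 179 CPM with a median of 137 CPM in IgM cells, against 58.8 to 95.05 CPM with a median of 63.8 CPM in IgG1 cells, a difference of 0.79 ± 0.14 (adjusted p = 0.047). The day 22 mice showed little class difference in Ly6d, with 63.8 and 73.3 CPM in IgM and 58.8 and 59.6 CPM in IgG1 cells. In the mice of days 10 and 16, IgM cells ran from 112 to 179 CPM and IgG1 cells from 61.2 to 95.05 CPM. From day 10 to day 22 the class difference changed by -0.87 ± 0.21, which did not pass in edgeR's test of class by day (adjusted p = 0.279). Blvrb (0.53 ± 0.09, adjusted p = 0.0489) and Ifi27l2a (0.41 ± 0.06, adjusted p = 0.0102) were the other 2 higher genes, each in 6 of 6 mice.

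Nrgn (chr9:37544492-37552904), neurogranin, a calmodulin-binding protein best known from neurons, was the 1 gene lower in IgM cells of the dark zone. It ran from 7.86 to 34.7 CPM with a median of 25.4 CPM in IgM cells, against 30.2 to 111 CPM with a median of 67.4 CPM in IgG1 cells. The ranges overlapped through day 10 mouse 1, which was lowest in both classes, and IgM was lower in 6 of 6 mice, by -1.48 ± 0.16 (adjusted p = 0.000679). In LZ the difference was -0.65 ± 0.24 (adjusted p = 0.452). Calls in DZ depended on single mice. Nrgn kept its call in all 6 refits without 1 mouse, Ifi27l2a in 5, Ly6d and Blvrb in 2, and Cd72 in 1. Without day 16 mouse 1 only 1 gene passed in DZ, without day 16 mouse 2 or day 22 mouse 2 it was 3, and across the 6 refits the log2 difference of Cd72 was 0.77 to 1.06, of Ly6d 0.70 to 0.91, of Blvrb 0.44 to 0.59 and of Ifi27l2a 0.35 to 0.45. Genes next by p in DZ were Lmo4 (0.84 ± 0.16, adjusted p = 0.0736), Foxp1 (0.39 ± 0.08, adjusted p = 0.109), Pkib (0.88 ± 0.20, adjusted p = 0.166), Cd24a (0.18 ± 0.04, adjusted p = 0.166) and Slfn2 (0.77 ± 0.18, adjusted p = 0.171) on the higher side. On the lower side they were Laptm5 (-0.18 ± 0.03, adjusted p = 0.0544), Cryz (-0.60 ± 0.12, adjusted p = 0.11), Slpi (-0.47 ± 0.10, adjusted p = 0.132), Ankrd26 (-0.71 ± 0.16, adjusted p = 0.166) and Ehd4 (-0.29 ± 0.07, adjusted p = 0.181).

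The light zone genes kept their direction in the dark zone, which was fitted on other cells of the same mice. Of the 26 genes called in LZ, 25 were tested in DZ, 24 had the same sign, and 17 (68%) had the same sign with an unadjusted p under 0.05, where 5.82% of DZ genes had such a p in either direction (6.84% in LZ). Ly6d, Cd72, Blvrb and Ifi27l2a were called in both zones, which is 15.4% of the LZ and 80% of the DZ calls. Gas8 was the gene of opposite sign (0.12 ± 0.30 in DZ). The difference between zones was tested itself in 1 fit of both: edgeR called 0 of 8452 genes, 351 (4.15%) had an unadjusted p under 0.05, and DESeq2 size factors in the same test also gave 0 calls. Cd2 had a difference between zones of 0.54 ± 0.15 (unadjusted p = 0.00213), Inpp5d of -0.36 ± 0.10 (unadjusted p = 0.00222), Gas8 of -1.35 ± 0.39 (unadjusted p = 0.003) and Scimp of -0.27 ± 0.08 (unadjusted p = 0.00345), each with an adjusted p of 1. Inpp5d, at 70.0 to 97.5 CPM in IgM and 70.0 to 97.7 CPM in IgG1 cells of DZ, gave a difference of -0.02 ± 0.08 there.

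Against the other switched classes, most of the named genes went the same way. IgG2b and IgG2c class cells together took the place of IgG1, so the IgM cells are shared between both comparisons and the values are set side by side only. These classes were smaller, with 200 IgG2b and 18 IgG2c cells in LZ against 947 of IgG1. In DZ they held 223 and 30 cells against 577. In LZ 9 of 7262 genes passed, immunoglobulin genes left out. How many of all genes kept their sign was not counted. Of the 26 genes called against IgG1 in LZ, 25 had the same sign and Ly6d, Cd72 and Crip1 passed, with 1.21 ± 0.14 (adjusted p = 4.41e-05), 0.87 ± 0.18 (adjusted p = 0.0157) and -0.33 ± 0.07 (adjusted p = 0.0353) on the log2 scale. Against these classes Blvrb gave 0.08 ± 0.13, Cd2 0.36 ± 0.17 and Ifi27l2a -0.03 ± 0.16. In DZ, Nrgn differed by -0.28 ± 0.29 against these classes. As plain CPM of summed counts, Nrgn in DZ averaged 23.9 ± 9.3 in IgM, 69.7 ± 29.3 in IgG1, 30.2 ± 13.8 in IgG2b and 23.7 ± 12.6 in cells without a class (SD, n = 6 mice each). By the same measure Ly6d in LZ averaged 231 ± 46.5 in IgM, 92.7 ± 32.6 in IgG1, 104 ± 44.4 in IgG2b and 129 ± 67.9 in cells without a class. The highest mean among these 4 groups of cells was that of IgM for Ly6d and that of IgG1 for Nrgn.

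**Figure D3:**
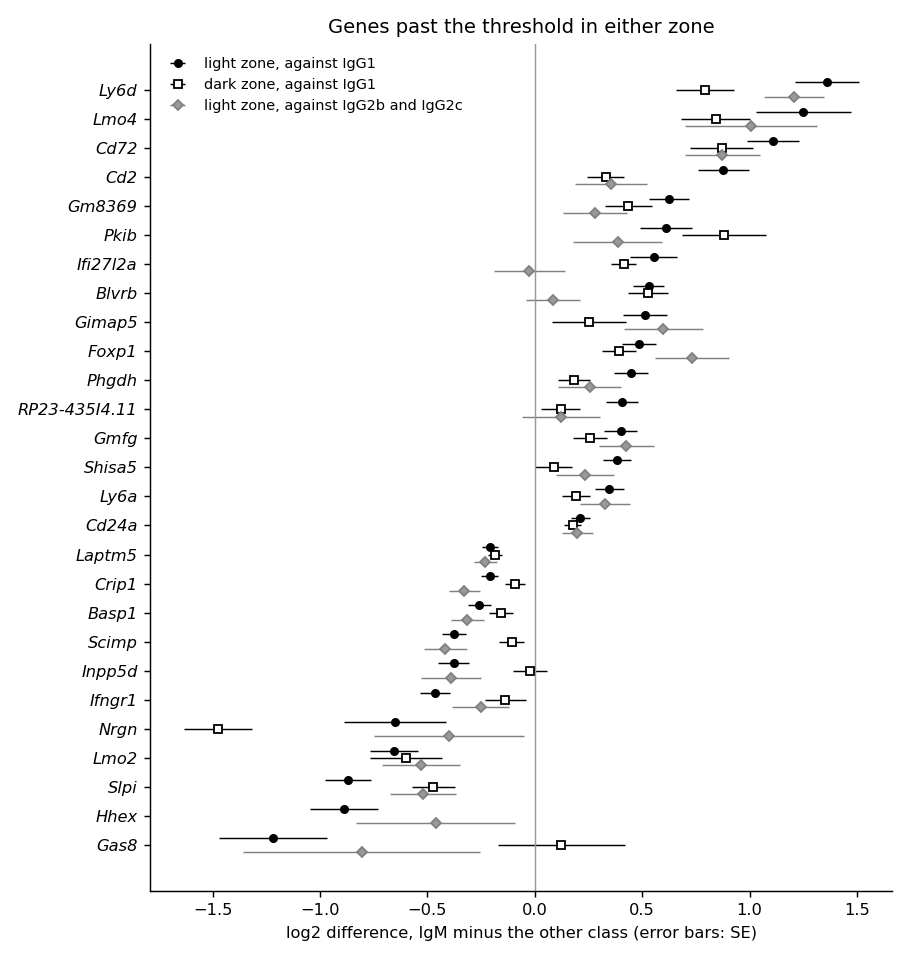
Log2 difference (x axis, IgM minus the other class, error bars are SE) of the 27 genes called in either zone (y axis), in the light zone (black circles) and dark zone (open squares) against IgG1, and in the light zone against IgG2b and IgG2c (grey diamonds). Signs match between zones for all genes tested in both but Gas8, and Ifi27l2a, Blvrb and Cd2 lie nearer 0 against IgG2b and IgG2c.

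Genes of the receptor pathway held no call in the fit of all genes. Beside the list counts that follow, 6.84% of all genes in LZ and 5.82% in DZ had an unadjusted p under 0.05, and 3909 of 8054 genes in LZ and 3804 of 7789 in DZ had a positive sign. The list of the receptor complex and its signalling had 27 members tested in each zone and edgeR called 0 in both, with 7 and 3 members at an unadjusted p under 0.05 in LZ and DZ. DESeq2, and edgeR without immunoglobulin genes, called Cd79b in LZ and 0 members in DZ. The median log2 difference was 0.05 in LZ and 0.02 in DZ, beside -0.01 and 0.00 for all genes. Cd79b, a signalling chain of the receptor, was at 2061 to 2300.4 CPM in IgM and 1794 to 2101 CPM in IgG1 cells of LZ, a difference of 0.13 ± 0.03 (adjusted p = 0.108), and Cd79a gave 0.07 ± 0.02 (adjusted p = 0.377). Nfatc1, a calcium-regulated factor, gave 0.38 ± 0.12 (adjusted p = 0.273). Of 13 inhibitory and Fc receptors and phosphatases tested, Cd72 was higher and Inpp5d lower in LZ (median 0.01), and Cd72 was higher in DZ (median 0.02). Ptpn6, which encodes SHP-1, gave 0.07 ± 0.05 in LZ. Of the immediate early genes, edgeR called 0 of 13 in LZ and 0 of 12 in DZ, with 4 and 1 at an unadjusted p under 0.05, and DESeq2 called 0 in both, while edgeR without immunoglobulin genes called Fos in LZ. Their medians were -0.14 and -0.02, and Fos gave -0.38 ± 0.09 (adjusted p = 0.107) in LZ.

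Lists of germinal centre state held few called genes. Of 15 germinal centre identity genes tested in LZ, Lmo2 and Basp1 fell, 4 had a positive sign and the median was -0.11. Of these 15, 9 had an unadjusted p under 0.05, 1 of them higher in IgM, where 6.84% of all LZ genes had such a p. Without immunoglobulin genes Cd38 was called as well, higher in IgM cells. In DZ edgeR and DESeq2 called 0 of 14, with 7 at an unadjusted p under 0.05 and a median of -0.01, and edgeR without immunoglobulin genes called Mef2c. Mef2c, a factor needed for receptor-driven proliferation, had lower values in IgM in 6 of 6 mice of both zones and did not pass in the fit of all genes, with -0.11 ± 0.03 (adjusted p = 0.249) in LZ and -0.22 ± 0.05 (adjusted p = 0.224) in DZ. Lmo2 and Basp1 are also the 2 called members of the 17 light zone genes tested in LZ. Of these 17, 6 had an unadjusted p under 0.05, 2 of them higher in IgM, and the median was -0.05. In DZ 0 of 15 were called (6 at an unadjusted p under 0.05, 0 by DESeq2, median -0.14). Of 29 genes of mutation, switching and repair, edgeR and DESeq2 called 0 in each zone, with 4 and 5 at an unadjusted p under 0.05. Of 16 genes of switch-directing signals in LZ, Ifngr1 was the 1 called (3 at an unadjusted p under 0.05, median 0.06).

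Genes of memory and naive cells mostly had a positive sign in the light zone, and of the memory list Hhex alone passed in the fit of all genes, with Cd38 added when immunoglobulin genes were left out. Of 23 memory and precursor genes 14 were tested in LZ, 12 had a positive sign and the median was 0.51. Of these, 6 had an unadjusted p under 0.05, while the 1 called gene, Hhex, was lower. The filter on low counts can keep a gene through the sums of a single class, so this median describes the tested members only. All 23 genes summed to 312 to 416 CPM (median 392) in IgM and 289 to 425 CPM (median 323) in IgG1 cells of LZ. Cd38, a surface enzyme low in mouse germinal centre cells, was at 5.32 to 17.6 CPM in IgM and 1.22 to 9.54 CPM in IgG1 cells (1.22 ± 0.33, adjusted p = 0.183). Gpr183, the receptor for oxysterols that guides B cells outside the follicle centre, gave 0.99 ± 0.28 (adjusted p = 0.224), and Ccr6, a chemokine receptor of memory precursors, 0.79 ± 0.23 (adjusted p = 0.241). Their counts were low: Ccr6 had 184 UMIs in 11.1% of IgM and 70 UMIs in 3.80% of IgG1 cells of LZ. In DZ only 4 memory genes were tested, 2 with a positive sign. Of 11 naive and follicular genes tested in LZ, Foxp1 rose, 8 had a positive sign and the median was 0.17. Of these 11, 4 had an unadjusted p under 0.05, all of them higher in IgM. In DZ 0 of 8 passed by edgeR or DESeq2, 1 had an unadjusted p under 0.05, 3 had a positive sign and the median was -0.06, and without immunoglobulin genes edgeR called Foxp1. The summed level of this list ran from 541 to 910 CPM in IgM and 564 to 853 CPM in IgG1 cells of LZ. Whether non-germinal centre cells within LZ had a part in the differences above was not tested.

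Growth, cycle and mitochondrial genes held no call in the fit of all genes. Of 25 genes of the Myc response and ribosome biogenesis in LZ, 21 had a positive sign and the median was 0.08, with 0 called by edgeR or DESeq2 and 1 at an unadjusted p under 0.05. Of 24 S phase genes, 21 in LZ and 19 in DZ had a positive sign, with medians of 0.09 and 0.10, 0 called by either tool, and 3 and 6 at an unadjusted p under 0.05. Of 24 genes of G2 and M phase, 18 in LZ and 11 in DZ had a positive sign, with medians of 0.08 and -0.01, 0 called by either tool, and 1 at an unadjusted p under 0.05 in each zone. All 13 mitochondrially encoded genes had a negative sign in both zones, with medians of -0.09 and -0.11 and 9 and 10 at an unadjusted p under 0.05. DESeq2 called 0 in LZ, and mt-Co1 and mt-Atp6 in DZ, and edgeR without immunoglobulin genes called 0 in LZ, and mt-Co1, mt-Atp6, mt-Nd4l and mt-Nd4 in DZ. Their summed level ran from 16908 to 18346 CPM in IgM and 17625 to 19389 CPM in IgG1 cells of LZ, and from 16217 to 18199 CPM in IgM and 18262 to 18964 CPM in IgG1 cells of DZ. These levels can move with RNA quality as well as with metabolism, and their part in the other differences was not tested.

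**Figure D4:**
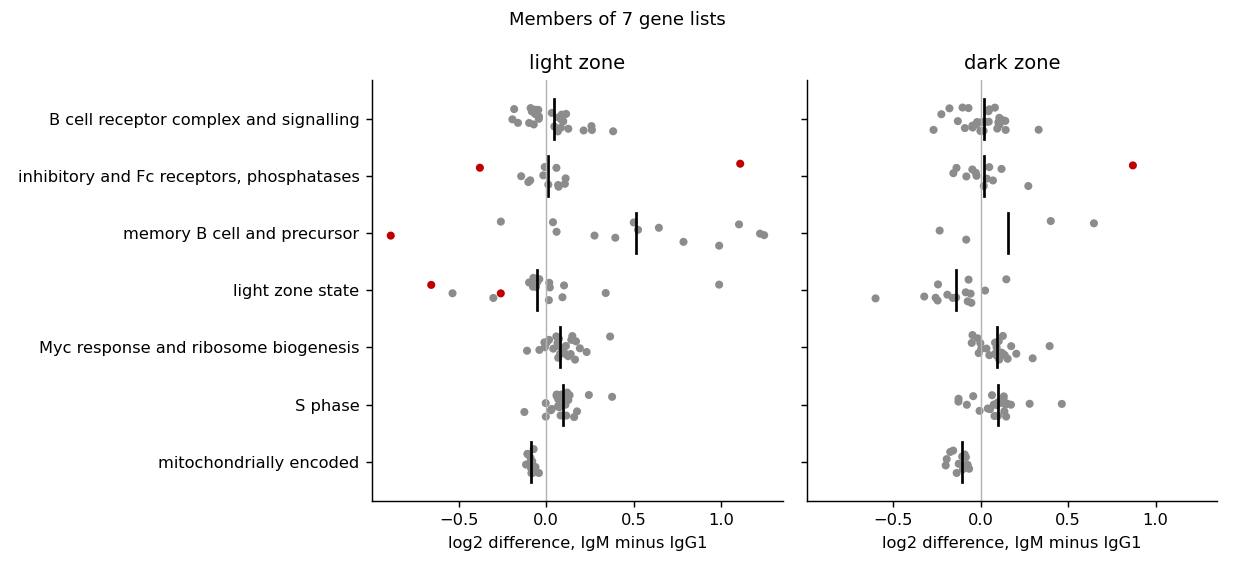
Log2 difference (x axis, IgM minus IgG1) of each tested member of 7 gene lists (y axis) in the light zone (left) and dark zone (right). Black bars are medians, and red points passed an adjusted p of 0.05. The memory list has its median at 0.51 in LZ, and the mitochondrial genes all lie below 0.

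Markers of other cells differed in level by list. Myeloid genes summed to 7.79 to 108 CPM in IgM and 10.0 to 280.0 CPM in IgG1 cells of LZ, and Lyz2 was found in 2.46% and 2.64% of these cells. In DZ myeloid genes summed to 7.29 to 27.8 CPM in IgM and 6.99 to 56.2 CPM in IgG1 cells, and Lyz2 was found in 2.24% and 4.68%. All 4 myeloid genes tested in LZ and both in DZ had a negative sign, with medians of -0.29 and -0.66, and edgeR, with or without immunoglobulin genes, and DESeq2 called 0, with 0 and 1 at an unadjusted p under 0.05. NK cell genes summed to 0 to 47.3 CPM in IgM and 0 to 118 CPM in IgG1 cells of LZ. All 3 tested in LZ had a negative sign (median -0.86), and Gzma (-1.89 ± 0.44, adjusted p = 0.172), found in 0.0911% of IgM and 0.106% of IgG1 cells, was called without immunoglobulin genes. Gzma had 22 UMIs in IgM and 111 UMIs in IgG1 cells of LZ. Ncr1 was found in the same shares of cells as Gzma, and Nkg7 in 0.0911% of IgM and 0.211% of IgG1 cells. The NK signs, median and call thus rest on very few cells and describe neither class as a whole. The median myeloid sum over mice was 62.0 CPM in IgM and 56.6 CPM in IgG1 cells of LZ, and 15.9 and 30.2 CPM in DZ. The median NK sum of LZ was 0.347 and 0.668 CPM. The part of these markers in the other differences was not tested. T cell genes summed to 108 to 155 CPM in IgM and 80.5 to 140 CPM in IgG1 cells of LZ, with Cd3e and Cd8a at 0 in both. Plasma cell genes summed to 2677 to 2964 CPM in IgM and 2648 to 2728 CPM in IgG1 cells of LZ.

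Variable genes of the heavy chain mostly had a positive sign, that is, toward IgM cells. Of 70 Ighv genes tested in LZ, 16 were called higher and 0 lower in IgM cells, 59 had a positive sign and the median was 1.28. In DZ the counts were 4 higher and 0 lower of 65, with 53 positive and a median of 0.81. An Ighv gene lies on the same transcript as the constant gene whose UMIs chose the class. These tests are therefore not separate from the class rule. The class gene had 8612 UMIs in 1098 IgM cells of LZ, against 4512 in 947 IgG1 cells. In DZ it had 8085 UMIs in 848 IgM and 3519 in 577 IgG1 cells. How far the Ighv differences follow from the amount of heavy chain transcript was not tested. Of all immunoglobulin genes, those of the class rule included, 14.6% passed in LZ and 4.46% in DZ. Of 88 Igkv genes tested in LZ, 4 were higher and 1 lower, with a median of 0.07. In DZ edgeR and DESeq2 called 0 of 79 Igkv genes, with 15 at an unadjusted p under 0.05, 37 positive and a median of -0.09. Receptor clones were not analysed here. Iglc2 rose in LZ (0.38 ± 0.07, adjusted p = 0.0176) and gave 0.19 ± 0.07 in DZ (adjusted p = 0.696). Iglc1 rose in DZ (0.36 ± 0.06, adjusted p = 0.0378) and gave 0.34 ± 0.07 in LZ (adjusted p = 0.0639), while Igkc gave 0.16 ± 0.06 and 0.00 ± 0.05.

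Ighv1-72, the gene known for dominating the response to NP in mice of the b heavy chain haplotype, ran from 20.98 to 273 CPM with a median of 113 CPM in IgM cells of LZ, against 18.2 to 59.9 CPM with a median of 25.2 CPM in IgG1 cells. The difference was 1.78 ± 0.17 (adjusted p = 0.000133) in LZ and 2.88 ± 0.26 (adjusted p = 0.000137) in DZ, and IgM was higher in 6 of 6 mice in both. These levels were not set against the amount of heavy chain transcript in each class, so its part in them was not tested. As a share of cells with a top Ighv gene, Ighv1-72 stood at 15.9%, 12.6%, 15.4%, 6.69%, 1.65% and 4.07% in IgM cells of the 6 mice in order of day, against 4.63%, 8.58%, 4.64%, 2.52%, 0.437% and 2.31% in IgG1 cells. The mean was 9.38% ± 6.06 in IgM and 3.85% ± 2.81 in IgG1 cells (SD, n = 6), and the 2-sided exact permutation test within mice gave p = 0.0312, the smallest that 6 pairs allow. Adjusted over the 32 shares, depths and scores compared it was 0.231, though at this smallest p a single measure could not pass such an adjustment. Lambda light chain use was 60.1% ± 14.8 in IgM and 56.5% ± 6.42 in IgG1 cells (SD, n = 6, exact p = 0.5).

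None of the 32 shares, depths and scores passed the adjustment, where the smallest adjusted p was 0.231. The exact permutation test on 6 pairs cannot give a p under 0.0312. A single measure could therefore not pass an adjustment over 32, whatever its values, and no conclusion is drawn from this outcome. The dark zone held 44.6% ± 6.47 of IgM and 38.1% ± 2.32 of IgG1 cells (SD, n = 6, exact p = 0.0938, higher in 5 of 6 mice). In LZ the authors' phase call put 52.9% ± 6.28 of IgM and 54.8% ± 9.95 of IgG1 cells in G1 (exact p = 0.656, n = 6). With each cell thinned to 5023 UMIs, which left out 546 shallower cells of the 5463, G1 was 45.7% ± 4.32 in IgM and 49.3% ± 7.23 in IgG1 cells of LZ (exact p = 0.312, n = 6). The median UMIs per cell were 8186 ± 697 in IgM and 7972 ± 1119 in IgG1 cells of LZ, and 9603 ± 1012 in IgM and 9596 ± 1848 in IgG1 cells of DZ. The authors' plasma cell score was 0.140 ± 0.00577 in IgM and 0.136 ± 0.00562 in IgG1 cells of LZ, above IgG1 in each of the 6 mice (exact p = 0.0312, 0.231 after adjustment). Genes per thinned cell were 1769 ± 14.6 in IgM and 1786 ± 22.2 in IgG1 cells of LZ, below IgG1 in each of the 6 mice (exact p = 0.0312, 0.231 after adjustment).

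The class difference was also compared between days 22 and 10, with 2 mice each. In LZ edgeR called 10 of 8225 genes (0.122%), all of them immunoglobulin genes. Of the other 8054 genes it called 0, with 317 at an unadjusted p under 0.05 and 0 calls with DESeq2 size factors. In DZ it called 20 of 7946 (0.252%), of which 18 were immunoglobulin genes and 2 were Cd74 and Cd52 (2 of 7789, 0.0257%). Cd52, a small GPI-anchored glycoprotein, had 2446 and 2431 CPM in IgM and 2263 and 2102 CPM in IgG1 cells of day 10 DZ, and 2127 and 2545 CPM in IgM and 2568 and 2954 CPM in IgG1 cells of day 22 DZ. From day 10 to day 22 the class difference changed by -0.41 ± 0.06 (adjusted p = 0.00667) and turned sign. IgM lay above IgG1 in both day 10 mice and below it in both day 22 mice. Cd74, the MHC class II invariant chain, changed by -0.24 ± 0.04 (adjusted p = 0.0274), with 18259 and 17693 CPM in IgM and 17932 and 16068 CPM in IgG1 cells of day 10, and 15887 and 18407 CPM in IgM and 18335 and 19858 CPM in IgG1 cells of day 22. With cells thinned to equal depth 0 genes passed in DZ. Leaving out day 22 mouse 1 gave 0 and day 10 mouse 2 gave 1, and leaving out day 10 mouse 1 gave 6. Each of these refits leaves 1 mouse on that day, which is assumed to vary like the mice of the other days. In LZ the same contrast gave 0.08 ± 0.09 for Cd52 and -0.08 ± 0.04 for Cd74.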

How the data were processed

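UMI counts per gene and cell of 6 mice were taken from the deposited raw count matrix (14493 genes, 6619 cells), which the authors made with Cell Ranger and Seurat against mm10/GRCm38, per the submitters' processing notes, without stated versions. Zone names, phase calls, module scores (unit: score), days and mice were read from the deposited cell table; how these were made is not given in the sources used here. No cell was removed, doublets were not treated, and 6 barcodes occurred in both wells, 0 of them in IgM or IgG1 class cells. Receptor and hashtag libraries were not used here.

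The members, lists, tests and comparisons were chosen with earlier results of these data known. Sums of at least 10 cells per mouse, class and zone were tested in edgeR 4.0.16 (TMM, filterByExpr, quasi-likelihood F test, R 4.3.3) with the mouse as block, since both classes came from the same mice; the pairing is the mouse itself. P-values were adjusted by Benjamini-Hochberg at 0.05. CPM are TMM-scaled. Named genes were the 10 largest differences per direction past the threshold with at least 20 CPM and 1 sign in every mouse, the 5 next by p where fewer passed, and up to 4 lowest-p members per list, immunoglobulin, mitochondrial, ribosomal and predicted genes apart. Some of the genes so chosen are not reported here. Lists are described by counts and medians, without set tests. For shares, the sign of each mouse's difference was permuted exactly (2-sided). Phases of thinned cells were called with scanpy 1.11.5. The fits were tested on simulated data. Alternatives were DESeq2 (1.42.0) factors and test, other filters, class rules, phases, cell numbers and comparison classes, no block, no immunoglobulin genes (253), thinned cells, and each mouse left out. Positions and sequences are from GENCODE M21. Python 3.11.15, numpy 2.4.6, scipy 1.17.1, pandas 2.3.3 and matplotlib 3.10.9 were used.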

Additional observations from a re-analysis of the deposited data

Results flagged for a closer look

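Among 156 sets of 6 mouse values, 18 had a mouse whose gap to the next, as a part of the set's range, exceeded Dixon's 95% critical value, where chance flags about 1 in 20 sets. In IgM cells of LZ these were Cd2 (42.9 CPM, low), Gimap5 (57.5 CPM), Lmo2 (52.9 CPM) and Gmfg (369 CPM). In IgG1 cells of LZ they were Ifi27l2a (565 CPM), Blvrb (343 CPM), Gimap5 (41.5 CPM), Crip1 (2406 CPM), Shisa5 (257 CPM) and Slfn2 (112 CPM). In IgM cells of DZ they were Ifi27l2a (1121 CPM) and Phgdh (128 CPM, low). In IgG1 cells of DZ they were Ly6d (95.05 CPM), Ifi27l2a (943 CPM), Blvrb (608 CPM) and Ehd4 (177 CPM). In IgM cells of 1 day 22 mouse the dark zone share (56.9%) was high and the lambda share (30.1%) low.

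Between days 22 and 10 the class difference of Cd74 changed by -0.24 and that of Cd52 by -0.41 on the log2 scale in DZ, tested as an interaction in edgeR's quasi-likelihood fit.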

How the results depend on the processing

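Counts of genes called, immunoglobulin genes left out, moved with the processing, and the cause was not tested. In LZ, beside 26, they were 8 with no replicate block, 102 with no filter on low counts, 68 with immunoglobulin genes out of the table (37 higher, 31 lower), 13 with thinned cells, 12 under a stricter class rule, 17 in G1 cells, 9 in S and G2M cells, 9 against IgG2b and IgG2c, and 11 to 22 when 1 mouse was left out (11 without day 22 mouse 2, 13 without day 16 mouse 1, 16 without day 10 mouse 2). In DZ, beside 5, they were 0 with no replicate block (333 at an unadjusted p under 0.05), 10 by DESeq2's test (5 higher, 5 lower), 42 with no filter, 30 without immunoglobulin genes (15 higher, 15 lower), 3 under a stricter and 3 under a looser class rule, 0 in G1 cells (242 at an unadjusted p under 0.05), 1 in S and G2M cells, 2 against IgG2b and IgG2c, and 1 to 5 when 1 mouse was left out. All 26 and all 5 were among the calls without immunoglobulin genes and with no filter, and the 8 without the block were among the 26. The zone difference gave 1 without immunoglobulin genes. The day difference gave 6 without them and 0 to 2 without 1 mouse in LZ, and 18 without them, 0 with thinned cells and 0 to 6 without 1 mouse in DZ. Under the stricter rule the DZ differences turned to -1321.5 for median UMIs, -0.0049 for the activation score and -0.000546 for the plasma cell score. Signs turned for Ifi27l2a in LZ (-0.0251) and Ifngr1 in DZ (0.0245) against IgG2b and IgG2c, Ankrd26 in LZ (-0.00893 thinned, -0.0701 stricter rule, -0.0189 in S and G2M, -0.013 against IgG2b and IgG2c), Gimap5 in DZ (-0.309, stricter rule), Inpp5d in DZ (0.081 thinned, 0.285 in G1, and -0.0694 to 0.0197 over the fits without 1 mouse, the last without day 22 mouse 1), Gas8 in DZ (-0.14 to 0.304 without 1 mouse, negative without day 16 mouse 2 and, at -0.014, without day 22 mouse 1) and Shisa5 in DZ (-0.00474 in S and G2M). Of the values of named genes under all alternatives, 13 turned sign, 1032 kept direction and side of the threshold, 56 newly passed and 230 no longer passed. Of the LZ calls 10 of 26 held in every fit without 1 mouse (Ly6d, Cd72, Cd2, Blvrb, Foxp1, Slpi, Ifngr1, Scimp, Gm8369 and Shisa5), and in DZ Nrgn alone did. Classes rest on few UMIs, so cells with under 2 UMIs of a class gene cannot be placed at this depth.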
